A study of Mus musculus with 15 samples.

Results

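Dbp, Tef, Hlf and Nfil3, 4 genes among the 46380 gene symbols shared by all 15 libraries, were followed in RNA from nuclei of parvalbumin neurons of the adult mouse cerebral cortex. They were chosen by name: Dbp, Tef and Hlf encode the PAR bZIP transcription factors, and Nfil3 encodes the repressor that binds the same DNA sites. All 4 were counted in every library and passed the filter on low counts in both comparisons.

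PAR bZIP factors bind DNA as pairs, homodimers or heterodimers, at a sequence called the D-box and activate transcription there. NFIL3 (also called E4BP4) binds the D-box as well and represses, so the balance of activators and repressor sets the output of a D-box gene. In many tissues Dbp follows the circadian clock closely, driven by the CLOCK and BMAL1 proteins through E-boxes, and Nfil3 tends to peak in the opposite phase under the control of the REV-ERB repressors. In mouse brain the PAR bZIP factors are known for driving pyridoxal kinase, which makes the active form of vitamin B6, and mice that lack all of them have seizures.

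Each library came from the sorted fluorescent nuclei of 1 mouse. In all 15 mice a parvalbumin-driven Cre (PvCre) switched on a nuclear fluorescent protein from the ROSA-tomato-lox allele, so every control also carried both transgenes. The PTU+TH mice (n = 4, Thra+/+) ate PTU, a blocker of thyroid hormone synthesis, for 2 weeks and were injected with thyroid hormone into the peritoneum 24 h before dissection. The PTU mice (n = 3, Thra+/+) ate PTU for 2 weeks without the injection. The Mut mice (n = 4, ThraAMI/+) carried 1 floxed ThraAMI allele and made the dominant negative receptor TRalpha1L400R, while the Ctrl mice (n = 4, Thra+/+) were their untreated littermates. The hormone dose, the exact age, the sex and the hour of dissection were not stated by any source used here. A parvalbumin-driven Cre marks every cortical cell that has expressed parvalbumin, not a single subtype.

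The deposited values were raw counts per gene, with 12957838 to 19141683 counts per library in PTU+TH and PTU and 22333742 to 32571175 in Mut and Ctrl. The 2 pairs of groups were counted with different gene lists, so treatment and counting set cannot be told apart between the pairs and no test was run across them. Levels below are CPM (counts scaled to library size) with TMM factors within a counting set, and p-values measure the spread between mice. Pvalb averaged 135 CPM in PTU+TH (range 117 to 150), 97.8 in PTU (87.1 to 104), 77.4 in Mut (65.0 to 90.1) and 120 in Ctrl (112 to 133). The summed CPM of 7 excitatory neuron markers lay at 183 to 261 in PTU+TH, 181 to 229 in PTU, 170 to 216 in Mut and 177 to 217 in Ctrl, against 5142 to 8929 for 9 parvalbumin neuron markers over all libraries. The summed CPM of oligodendrocyte markers was 73.0 to 174 in PTU+TH, 118 to 171 in PTU, 79.3 to 114 in Mut and 87.7 to 113 in Ctrl, with Mog at 1.11 to 7.16 CPM over all libraries. Astrocyte markers summed to 19.7 to 36.5 CPM in PTU+TH, 26.9 to 41.1 in PTU, 28.1 to 40.1 in Mut and 24.5 to 43.0 in Ctrl, with Gfap at 0 in every library and Aqp4 at 0.0933 to 3.25 CPM. Microglial markers summed to 2.59 to 16.5 CPM over all libraries, with P2ry12 at 0 in each, and endothelial markers to 6.54 to 30.2 CPM. Markers of other interneurons summed to 12.9 to 44.3 CPM in PTU+TH and 19.0 to 36.2 in PTU. In Mut they summed to 21.5 to 53.3 CPM and in Ctrl to 18.4 to 27.3. Of these 5 markers, 3 were tested in each comparison, and 3 of 3 were higher in Mut and 1 of 3 in PTU+TH. Tested parvalbumin neuron markers were higher for 7 of 9 in PTU+TH and 3 of 9 in Mut. For excitatory neurons these counts were 2 of 7 and 4 of 7, and for astrocytes 1 of 5 and 2 of 5. Oligodendrocytes had 1 of 5 and 3 of 5, microglia 2 of 4 and 2 of 3, and endothelial cells 2 of 5 and 2 of 4. The part of these cell types in the results was not tested. No tested marker of any of the 7 cell types was called in either comparison, and some listed markers had too few counts to be tested. In bulk nuclei, fewer cells of a type and less RNA per cell cannot be told apart. Counts of Y-linked genes split every group into libraries with them (over 50 CPM summed over 4 genes) and without (under 4 CPM): 2 of 4 in PTU+TH, 2 of 3 in PTU, 3 of 4 in Mut and 1 of 4 in Ctrl had them. The share of counts from genes longer than 100 kb moved with this split in PTU+TH and PTU, at 24.9% to 28.4% with and 34.1% to 40.7% without Y-linked counts, and was 27.4% to 39.7% in Mut and Ctrl. Thra averaged 31.8 CPM in Mut and 57.0 CPM in Ctrl.

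The promoters of the 4 genes are printed so that the sites of D-box, clock and receptor proteins can be read in them beside the values below. Each is the RefSeq window on GRCm38.p6 from 250 bases before to 50 bases after an annotated start, read 5′ to 3′ on the gene's strand. Searched on both strands, with matches in capitals, were the E-box CACGTG, the D-box TTATGTAA or TTACGTAA, the cAMP response element TGACGTCA and the nuclear receptor half-site AGGTCA. The windows are Dbp at chr7:45704997-45705296 (+), Hlf at chr11:90390868-90391167 (-), Nfil3 at chr13:52980990-52981289 (-) and the upstream of 2 Tef windows at chr15:81802423-81802722 (+).
Dbp: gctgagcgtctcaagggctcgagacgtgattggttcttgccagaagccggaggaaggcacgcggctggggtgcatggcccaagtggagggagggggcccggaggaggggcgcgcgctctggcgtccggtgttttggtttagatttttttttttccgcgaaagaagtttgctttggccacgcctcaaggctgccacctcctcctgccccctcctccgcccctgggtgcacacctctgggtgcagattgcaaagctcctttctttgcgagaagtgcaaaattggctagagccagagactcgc
Hlf: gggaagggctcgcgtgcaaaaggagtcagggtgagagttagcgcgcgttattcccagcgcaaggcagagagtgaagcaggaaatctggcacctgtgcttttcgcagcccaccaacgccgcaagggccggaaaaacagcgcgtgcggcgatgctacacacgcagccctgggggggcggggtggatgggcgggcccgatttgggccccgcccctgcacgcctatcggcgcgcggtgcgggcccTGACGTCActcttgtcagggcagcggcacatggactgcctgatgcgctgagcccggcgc
Tef: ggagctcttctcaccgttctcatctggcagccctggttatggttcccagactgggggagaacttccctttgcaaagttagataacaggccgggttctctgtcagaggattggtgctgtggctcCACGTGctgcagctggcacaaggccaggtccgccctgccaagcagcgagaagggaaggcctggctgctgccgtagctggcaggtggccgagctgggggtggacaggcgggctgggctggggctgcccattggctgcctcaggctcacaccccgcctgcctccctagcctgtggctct
Nfil3: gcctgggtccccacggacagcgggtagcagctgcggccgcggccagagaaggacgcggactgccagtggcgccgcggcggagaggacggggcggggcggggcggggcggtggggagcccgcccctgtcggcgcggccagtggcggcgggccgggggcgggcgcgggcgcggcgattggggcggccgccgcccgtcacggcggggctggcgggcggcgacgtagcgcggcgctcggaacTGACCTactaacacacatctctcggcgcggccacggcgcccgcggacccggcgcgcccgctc
No window of the 4 genes held the D-box, which 1.06% of the 32851 windows in the RefSeq table hold. The E-box stood at position -127 of the printed Tef window and at position -138 of the other, chr15:81811164-81811463 (+), where 7.15% of all windows hold it, and the windows of the other 3 genes had none. Hlf had the cAMP response element at position -9, a motif present in 1.79% of windows. Nfil3 had 1 half-site, printed as its reverse complement, at position -12, and 16.3% of windows hold one. A match is a description of these letters only, and the E-boxes known to drive Dbp in mouse cells include sites in its introns, which these windows do not cover.

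Annotation placed Dbp (ENSMUSG00000059824.12, plus strand) at positions 45705088 to 45710203 of chromosome 7, with 2993 bp of merged exon in GENCODE M21 on GRCm38. Its last exon overlaps Sphk2, a sphingosine kinase gene on the other strand, over 539 bp, or 18.0% of its exon length. Because the library kits do not mark strand, reads from that stretch cannot be assigned to either gene, and their part in the Dbp values was not tested. Sphk2 measured 24.6 ± 2.08 CPM in PTU+TH and 24.0 ± 3.28 in PTU, and 22.4 ± 3.88 in Mut and 20.5 ± 4.15 in Ctrl (SD, n as above). Tef (ENSMUSG00000022389.15, plus strand) lies at 81802421 to 81826863 of chromosome 15 and shares 193 bp, 2.45% of its 7867 bp of exon, with the antisense gene Gm17597. Hlf (ENSMUSG00000003949.16, minus strand) lies at 90336536 to 90390895 of chromosome 11 with 6681 bp of exon. Nfil3 (ENSMUSG00000056749.7, minus strand) lies at 52967209 to 52981073 of chromosome 13 with 2026 bp of exon. The exons of Hlf and Nfil3 overlap no other gene.

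Per kilobase of exon, Tef was the most abundant of the 4 in every group: 20.5 ± 1.40 CPM per kb in PTU+TH, 19.5 ± 1.07 in PTU, 13.5 ± 1.79 in Mut and 16.9 ± 1.97 in Ctrl (mean ± SD). Dbp reached 17.7 ± 0.528 CPM per kb in PTU+TH, where it stood next to Tef, and 7.76 ± 1.31 in PTU, 3.72 ± 1.40 in Mut and 6.20 ± 1.56 in Ctrl. Hlf had 9.97 ± 0.867 CPM per kb in PTU+TH, 6.51 ± 0.706 in PTU, 4.79 ± 1.15 in Mut and 7.53 ± 1.24 in Ctrl. The repressor was the least abundant in all groups but Mut. There, Nfil3 at 4.90 ± 1.26 CPM per kb stood beside Hlf and above Dbp, whereas it was at 2.30 ± 0.373 in PTU+TH, 3.38 ± 0.422 in PTU and 2.94 ± 0.598 in Ctrl.

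**Figure D1:**
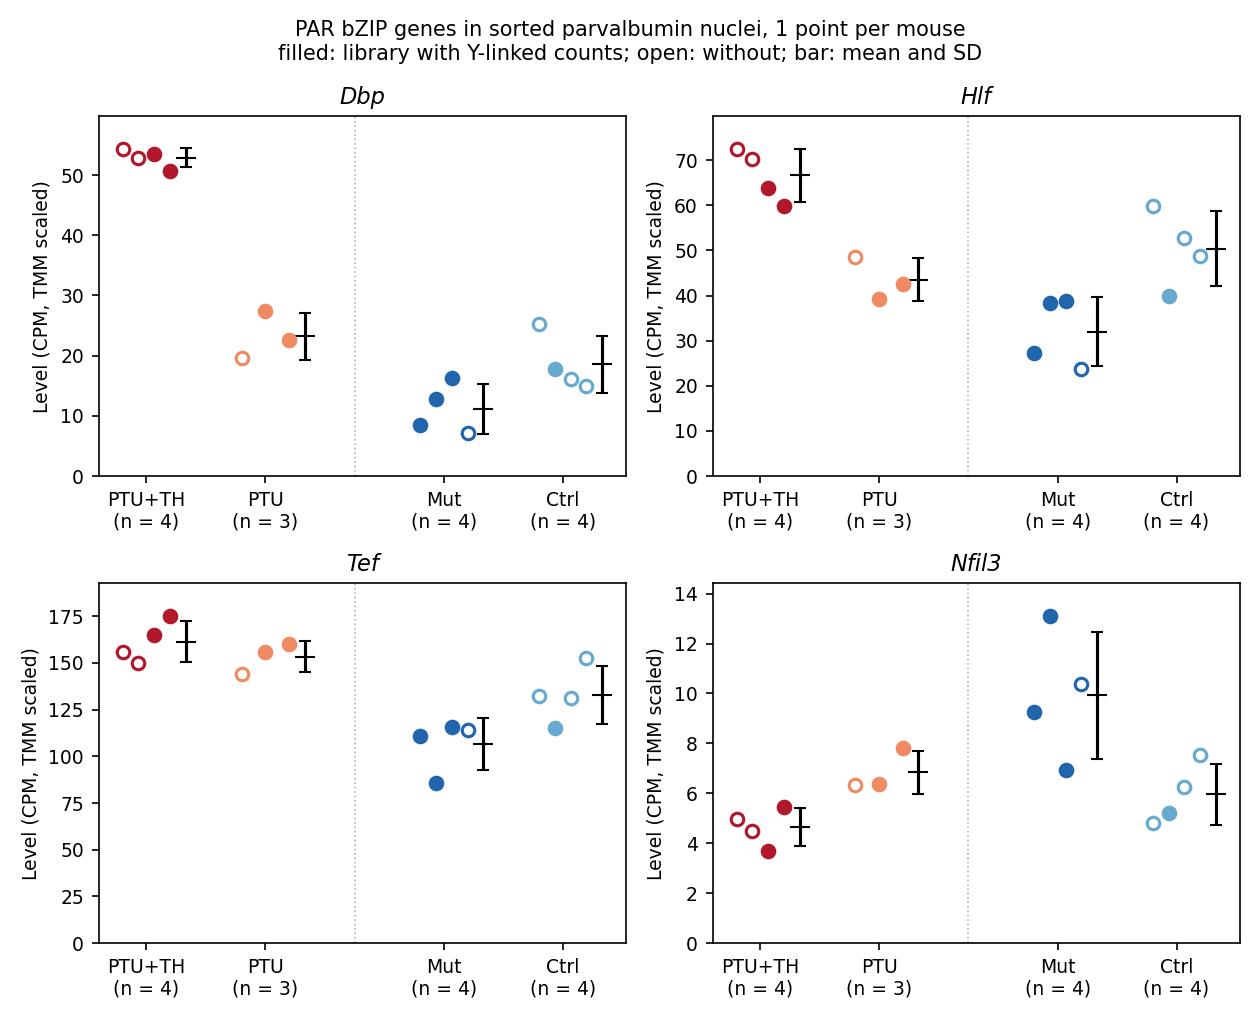
CPM (TMM-scaled, linear axes from 0) of Dbp, Hlf, Tef and Nfil3 in each library (points, filled with and open without Y-linked counts) with the mean and SD per group (bars) for PTU+TH, PTU, Mut and Ctrl. Dbp stands at 50.7 to 54.3 CPM in PTU+TH, above every other library, while the Tef points of PTU+TH and PTU overlap, as do those of Mut and Ctrl.

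Across the 4 groups the mean level of Dbp ran PTU+TH, PTU, Ctrl, Mut in descending order, and the neighbours below PTU+TH overlapped in range. Tef had the same order, with every pair of neighbours overlapping. Hlf ran PTU+TH, Ctrl, PTU, Mut, and of its neighbours PTU and Mut alone did not overlap. Nfil3 ran in another order, Mut, PTU, Ctrl, PTU+TH, and all its neighbours overlapped. Steps between the counting sets are a description, for the reason given above.

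The first comparison asks what a thyroid hormone injection 24 h earlier does in PTU-fed mice. Dbp, the PAR bZIP factor most tightly tied to the clock, rose 2.27-fold in PTU+TH. Hlf stood 1.53-fold higher without passing the threshold, Nfil3 stood lower in every PTU+TH library, and Tef hardly differed. Of the 4, 1 was called and 3 had groups that did not overlap; over all 15288 genes tested, 43 or 0.281% were called (39 higher, 0.255%, and 4 lower, 0.0262%) and 8.59% did not overlap.

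Dbp measured 54.3, 52.8, 53.6 and 50.7 CPM in the PTU+TH libraries, against 19.7, 27.4 and 22.6 CPM in the PTU libraries. The PTU+TH libraries lay close together, all of them above the highest PTU library. The log2 fold change was 1.19 ± 0.13 (SE; 95% interval 0.89 to 1.48; Benjamini-Hochberg adjusted p = 0.0126, edgeR's quasi-likelihood test), the 12th smallest p of the comparison. The call was lost without PTU+TH replicate 1 (edgeR adjusted p = 0.0728), without PTU+TH replicate 3 (0.0644), without PTU replicate 7 (0.0776) and in a fit over all 15 libraries (0.0764), while the log2 fold change was 1.17 to 1.18 in these 4 fits and 1.08 to 1.32 over all fits that leave out a library. Among libraries with Y-linked counts Dbp averaged 52.1 CPM in PTU+TH and 25.0 CPM in PTU (n = 2 each), and without them 53.6 CPM in PTU+TH (n = 2) and 19.7 CPM in PTU (n = 1).

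Hlf, first known as a partner in leukaemia gene fusions, measured 72.5, 70.2, 63.8 and 59.9 CPM in the PTU+TH libraries, against 48.6, 39.3 and 42.6 CPM in the PTU libraries. Every PTU+TH library stood above every PTU library. Its log2 fold change of 0.61 ± 0.12 (SE; 95% interval 0.35 to 0.88) missed the threshold with an adjusted p of 0.110 by edgeR's quasi-likelihood test. It passed with DESeq2 (adjusted p = 0.00464), with limma-voom (0.0156), with the Y-linked split as a term (edgeR, 0.00345) and with the share of long genes as a covariate (edgeR, 0.000132). Over all genes, DESeq2 called 203 of 24656. The other fits called 162, 335 and 1011 of 15288 in that order, against 43 in the main fit.

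Tef, named for its part in thyrotroph cells of the pituitary, measured 155.9, 149.8, 164.7 and 175.0 CPM in the PTU+TH libraries, against 143.9, 156.0 and 160.2 CPM in the PTU libraries. The groups overlapped. At 0.07, the log2 fold change had a 95% interval from -0.16 to 0.31, so a change of the size seen for Dbp lies outside the interval (edgeR adjusted p = 0.999).

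Nfil3 measured 4.96, 4.49, 3.69 and 5.47 CPM in the PTU+TH libraries, against 6.32, 6.38 and 7.83 CPM in the PTU libraries. These rest on 49 to 79 raw counts per library in PTU+TH and 91 to 127 in PTU, the shallowest readings of the 4 genes. All PTU+TH libraries lay below all PTU libraries. The log2 fold change of -0.56 ± 0.21 (SE, 95% interval -1.03 to -0.08) had an unadjusted p of 0.0259 and an adjusted p of 0.541 by edgeR's quasi-likelihood test. Of all genes, 7.37% had an unadjusted p under 0.05. The unadjusted edgeR p rose to 0.0503 without PTU+TH replicate 2, 0.0661 without PTU+TH replicate 3 and 0.106 without PTU replicate 7. It stayed under 0.05 leaving out each other library.

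**Figure D2:**
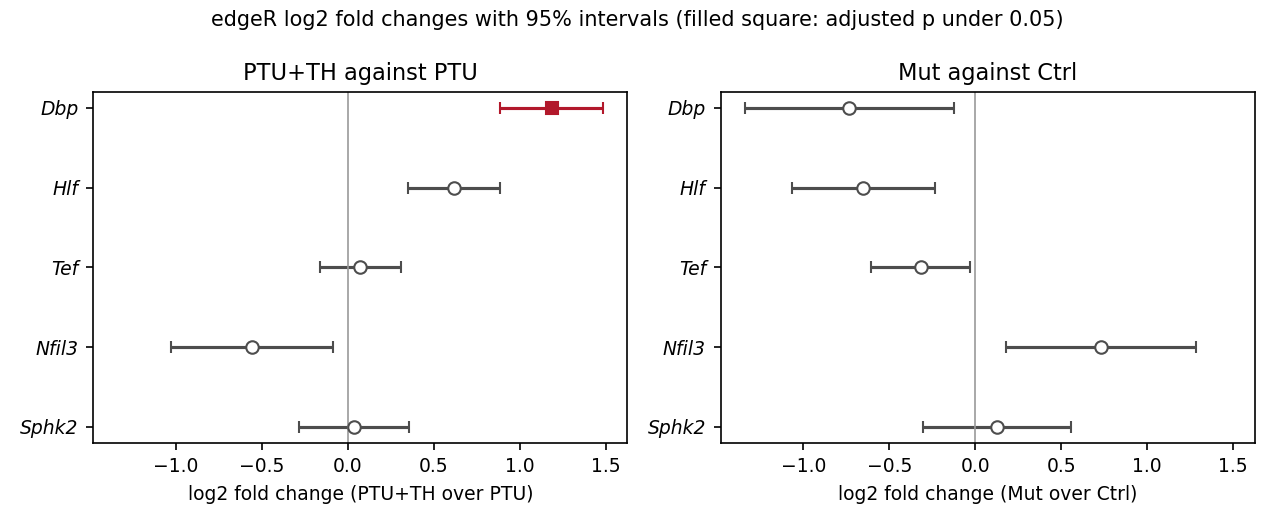
Log2 fold changes (points) with 95% intervals (lines) of the 4 genes and of Sphk2, which overlaps Dbp, for PTU+TH over PTU and for Mut over Ctrl, from edgeR; the filled square marks an adjusted p under 0.05. Dbp and Hlf lie above 0 in PTU+TH over PTU and below 0 in Mut over Ctrl, and Nfil3 lies on the other side of 0 in each.

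The second comparison asks what the dominant negative receptor does in mice not treated with PTU. Dbp, Hlf and Tef averaged lower in Mut and Nfil3 averaged higher, but 0 of the 4 passed edgeR's quasi-likelihood test after adjustment, where 59 of 16949 genes (0.348%) were called (21 higher, 0.124%, and 38 lower, 0.224%). Unadjusted, 4 of 4 had p under 0.05 by edgeR, against 8.74% of all genes. With the Y-linked split as a term, Tef had a log2 fold change of -0.21 (edgeR unadjusted p = 0.175). Dbp, Hlf and Nfil3 stayed under 0.05 in that fit (0.0194, 0.0186 and 0.0212). The unadjusted edgeR p reached 0.0846 for Dbp without Ctrl replicate 1 and 0.112 for Tef without Ctrl replicate 4. Hlf and Nfil3 stayed under 0.05 leaving out each library. DESeq2 called 0 of the 4 and 403 genes in all. Of the 4, limma-voom called 1, Hlf, and it called 331 of all 16949 genes. Groups did not overlap for 1 of the 4, Hlf, against 6.12% of all genes.

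Dbp measured 8.41, 12.8, 16.2 and 7.08 CPM in the Mut libraries, against 25.3, 17.8, 16.1 and 14.9 CPM in the Ctrl libraries. Mut replicate 3 reached into the Ctrl range, and the other Mut libraries lay below it. The log2 fold change was -0.73 ± 0.28 (SE; 95% interval -1.34 to -0.12; edgeR adjusted p = 0.435). Among libraries with Y-linked counts Dbp averaged 12.5 CPM in Mut (n = 3) and 17.8 CPM in Ctrl (n = 1), and without them 7.08 CPM in Mut (n = 1) and 18.8 CPM in Ctrl (n = 3).

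Hlf measured 27.3, 38.4, 38.8 and 23.6 CPM in the Mut libraries, against 59.9, 40.0, 52.7 and 48.8 CPM in the Ctrl libraries. Every Mut library lay below every Ctrl library, by little at the nearest pair. The log2 fold change was -0.65 ± 0.19 (SE; 95% interval -1.07 to -0.24; edgeR adjusted p = 0.249), and limma-voom gave -0.75 with an adjusted p of 0.0347. With Y-linked counts the means were 34.8 CPM in Mut (n = 3) and 40.0 CPM in Ctrl (n = 1), a log2 ratio of -0.20. Without them they were 23.6 CPM in Mut (n = 1) and 53.8 CPM in Ctrl (n = 3), a log2 ratio of -1.19. With the split as a term in the edgeR fit, the log2 fold change of Hlf was -0.69 (adjusted p = 0.513) and that of Dbp was -0.95 (adjusted p = 0.516).

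Tef measured 111.1, 85.5, 115.6 and 113.8 CPM in the Mut libraries, against 132.3, 114.9, 131.2 and 152.7 CPM in the Ctrl libraries. Mut replicate 3 exceeded the lowest Ctrl library, so the groups overlapped. Mut over Ctrl came to a log2 fold change of -0.32 ± 0.13 (SE; 95% interval -0.60 to -0.03; edgeR adjusted p = 0.501).

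Nfil3 measured 9.27, 13.1, 6.94 and 10.4 CPM in the Mut libraries, against 4.81, 5.23, 6.26 and 7.53 CPM in the Ctrl libraries, from 223 to 311 raw counts in Mut and 112 to 193 in Ctrl. The ranges overlapped through Mut replicate 3 and Ctrl replicate 4. Mut over Ctrl came to a log2 fold change of 0.73 ± 0.25 (SE; 95% interval 0.18 to 1.29; edgeR adjusted p = 0.360).

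A ratio of activator to repressor counts within a library does not depend on how libraries are scaled. It is given without a test. Dbp to Nfil3 came to 11.0, 11.8, 14.5 and 9.27 in the PTU+TH libraries, against 3.11, 4.30 and 2.88 in the PTU libraries, a 3.40-fold difference of geometric means. All PTU+TH ratios stood above all PTU ratios, which follows from Dbp lying higher and Nfil3 lower in every PTU+TH library. In Mut the ratio was 0.908, 0.981, 2.34 and 0.682, against 5.26, 3.40, 2.58 and 1.98 in Ctrl, so that 3 of 4 Mut libraries held fewer Dbp than Nfil3 counts and no other library did. The Mut mean was 2.83-fold lower, with an overlap at Mut replicate 3. The mean log2 ratio of Hlf to Nfil3 was 3.85 ± 0.28 in PTU+TH and 2.67 ± 0.25 in PTU, and 1.69 ± 0.55 in Mut and 3.08 ± 0.40 in Ctrl (SD). For Tef to Nfil3 it was 5.13 ± 0.24 in PTU+TH and 4.49 ± 0.13 in PTU, and 3.45 ± 0.56 in Mut and 4.49 ± 0.20 in Ctrl. Neither pair of groups overlapped for Hlf or for Tef. For Hlf in PTU+TH and PTU this too follows from the separation of both genes. How often ratios of other gene pairs do not overlap was not computed. The Tef to Nfil3 ratio differed by 0.64 in log2 between PTU+TH and PTU. Tef itself had a log2 fold change of 0.07 there and Nfil3, the gene with the fewest counts, one of -0.56 (edgeR adjusted p = 0.541).

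**Figure D3:**
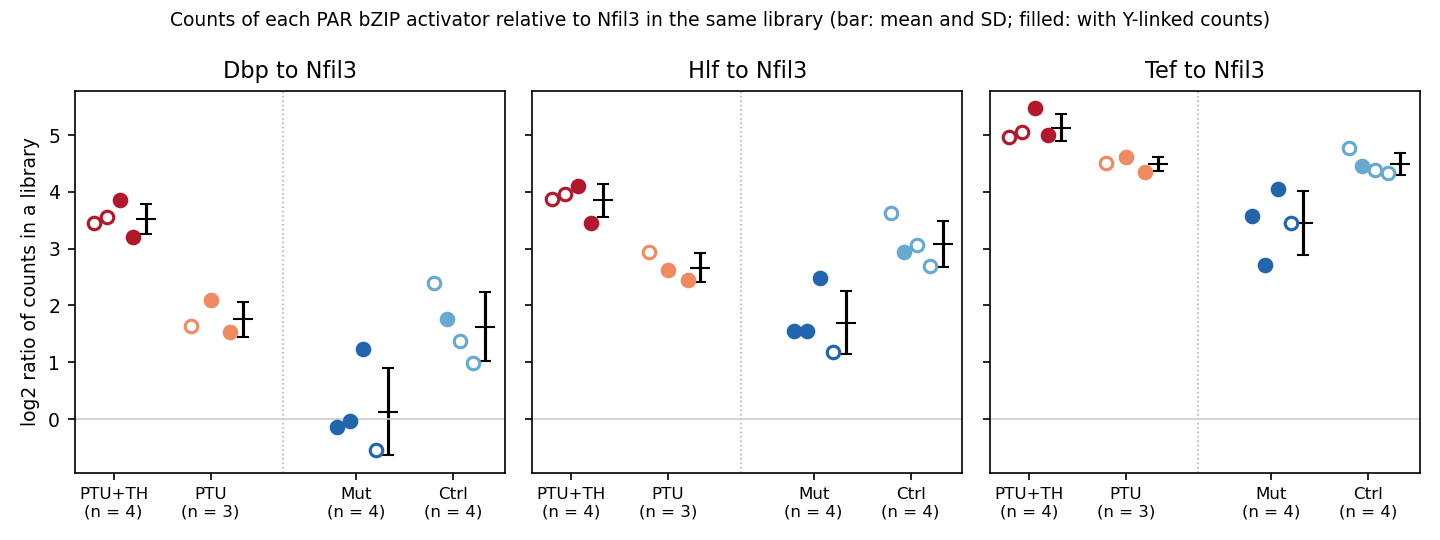
Log2 ratio of the counts of each activator (Dbp, Hlf, Tef) to those of Nfil3 in each library (points, filled with and open without Y-linked counts), with the mean and SD per group (bars). For Dbp, PTU+TH libraries stand above PTU libraries and 3 of 4 Mut libraries fall below a log2 ratio of 0.

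Over the 15 libraries, each centred on its counting set, Dbp and Hlf varied together (Pearson r = 0.88 on log2(CPM + 1)), and each ran opposite to Nfil3 (r = -0.77 for Dbp and -0.70 for Hlf). Tef followed them loosely, with r = 0.34 to Dbp and 0.40 to Hlf. Centring on the counting set leaves the differences between groups in, so these values partly restate the changes given above. Within groups, Dbp and Hlf ranked the Mut libraries alike and the PTU libraries in opposite order. The correlations describe libraries that share treatment groups and are not independent, so they carry no test. Among 9766 genes, those most like Dbp were Gfpt2 (r = 0.93), Cacnb3 (0.92), Rgcc (0.90), D1Ertd622e (0.89) and Abcd2 (0.89). The genes most like Hlf were Rgcc (0.94), Mcf2 (0.94), D1Ertd622e (0.90), Tet1 (0.89) and Dbp itself (0.88). Cacnb3, a calcium channel subunit, had 98.4 ± 6.41 CPM in PTU+TH and 29.3 ± 4.60 CPM in PTU (edgeR adjusted p = 0.00251). It had 20.5 ± 3.32 CPM in Mut and 63.9 ± 17.2 CPM in Ctrl (edgeR adjusted p = 0.00708). Cacnb3 was picked for its likeness to Dbp over these same libraries, so its values are no separate support for the change of Dbp. Most like Tef were Rnf145 (0.90), Syt2 (0.89), Spock2, Zfp809 and Asrgl1 (each 0.87). Most like Nfil3 were Arid5a (0.90), Rac3, Tcap and Rbp4 (each 0.89) and Fam102b (0.88). The 5 genes most like Tef included none of those most like Dbp or Hlf.

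The genes around the members were read from lists. The clock list of 21 genes holds the core clock and its regulators; 18 were tested in PTU+TH against PTU. None was called by edgeR's quasi-likelihood test, where 2 had an unadjusted p under 0.05 (7.37% of all genes) and DESeq2 called 1, Nr1d2, of 203 genes it called in all. The list split into 8 with positive and 10 with negative log2 fold changes, where all genes split into 7561 and 7727, with a median of -0.04 against -0.0029 for all genes. In Mut against Ctrl 0 of 19 were called by edgeR, 5 had an unadjusted p under 0.05 (8.74% of all genes) and DESeq2 called 2, Nr1d2 and Bhlhe40, of 403 genes it called in all. Here 10 were positive and 9 negative, against 8866 and 8083 of all genes, with a median of 0.01 against 0.014. The clock activator Arntl, which encodes BMAL1, had a log2 fold change of -0.10 in PTU+TH over PTU and 0.17 in Mut over Ctrl. Per1, a clock repressor, had -0.26 and 0.11, and Nr1d1, encoding REV-ERB alpha, had 0.04 and 0.33, in that order of comparisons. Per3 and Ciart were at 0 counts in every library and are not read further.

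Nr1d2, encoding REV-ERB beta, had the smallest p of the clock list in PTU+TH against PTU. It measured 181, 172, 186 and 170 CPM in the PTU+TH libraries, against 138, 135 and 130.0 CPM in the PTU libraries. It measured 116, 109, 119 and 101 CPM in the Mut libraries, against 147, 160, 138 and 144 CPM in the Ctrl libraries. Neither pair of groups overlapped. The log2 fold changes were 0.40 ± 0.10 in PTU+TH over PTU (SE; edgeR adjusted p = 0.233) and -0.41 ± 0.10 in Mut over Ctrl (edgeR adjusted p = 0.153). DESeq2 called both (adjusted p = 0.00732 and 0.00569). In Mut, the repressor gene Bhlhe40 averaged 8.51 ± 1.74 CPM against 14.8 ± 1.73 CPM in Ctrl without overlap (edgeR adjusted p = 0.151; DESeq2 adjusted p = 0.00312). Bhlhe41, its relative and also a target of the PAR bZIP factors, averaged 13.4 ± 4.86 CPM in Mut and 22.2 ± 2.32 CPM in Ctrl (edgeR adjusted p = 0.371). These 3 were the clock-list genes that were lower in Mut with an unadjusted p under 0.05, and 2 others were higher. Npas2 had a log2 fold change of 0.41 (edgeR adjusted p = 0.362) and Arntl2 one of 0.33 (edgeR adjusted p = 0.534). Csnk1e, a kinase of the PER proteins, averaged 112 ± 13.9 CPM in PTU+TH and 85.7 ± 3.15 CPM in PTU (edgeR adjusted p = 0.404).

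Genes reported to depend on PAR bZIP factors, 15 of them, 9 also on the clock list, had 11 tested in each comparison. In PTU+TH against PTU, 9 of 11 were positive with a median log2 fold change of 0.15, against 7561 positive of 15288 genes and a median of -0.0029. In Mut against Ctrl 9 of 11 were negative with a median of -0.11, against 8083 negative of 16949 genes and a median of 0.014. None was called by edgeR in either comparison, where 2 had an unadjusted p under 0.05 in each, against 7.37% of all genes in PTU+TH against PTU and 8.74% in Mut against Ctrl. DESeq2 called 1 in each, and both times it was Nr1d2, already counted in the clock list. Pdxk, the pyridoxal kinase gene, measured 108, 92.7, 91.6 and 111 CPM in the PTU+TH libraries, against 65.4, 63.3 and 85.0 CPM in the PTU libraries. The groups did not overlap (log2 fold change 0.50, edgeR adjusted p = 0.316). Its log2 fold change in Mut over Ctrl was -0.11 (adjusted p = 0.953). Of the C/EBP genes, bZIP factors with overlapping site preference, 3 of 6 were tested and none was called or had an unadjusted p under 0.05 by edgeR in either comparison. The smallest p belonged to Cebpg in PTU+TH over PTU (log2 fold change 0.21) and to the stress factor Ddit3 in Mut over Ctrl (0.18).

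**Figure D4:**
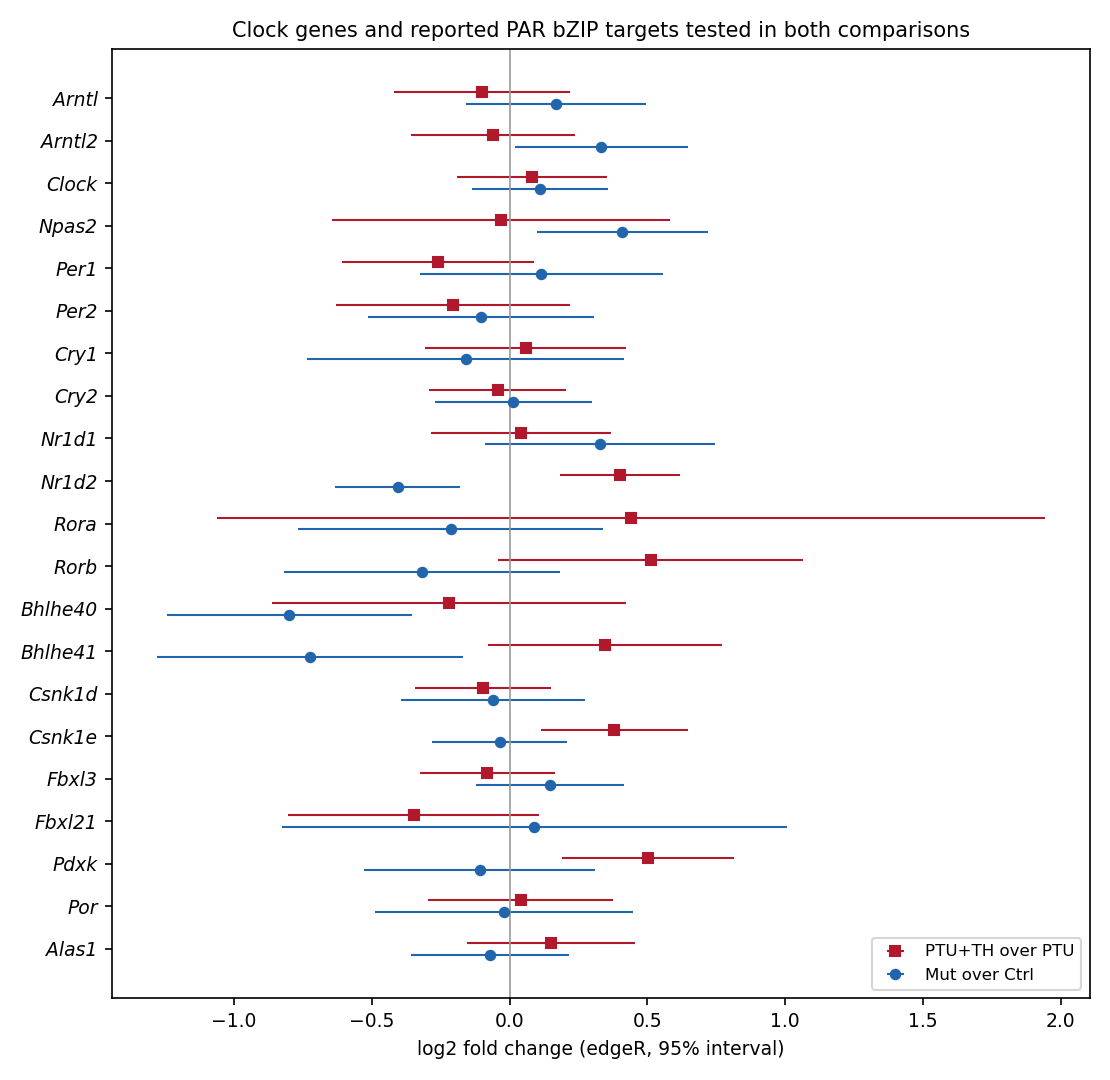
Log2 fold changes with 95% intervals (edgeR) of the clock and PAR bZIP target genes tested in both comparisons, as squares for PTU+TH over PTU and circles for Mut over Ctrl. Most intervals span 0, and Nr1d2 stands at 0.40 in PTU+TH over PTU and -0.41 in Mut over Ctrl.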

How the data were processed

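Nuclear RNA was amplified with SMART-Seq v4, made into Nextera XT libraries and sequenced single-end, per the labels' protocols, without molecular identifiers. The authors deposited raw counts per gene, 1 table per library, from Bowtie2 2.5.3 alignments to mm10 and HTSeq, per the submitters' processing notes. No source used here names the annotation, counting mode or strand setting, so overlapping genes are uncertain. Groups came from the sample titles, which number separate mice. Each comparison was fitted on its own libraries, over all genes, in edgeR 4.0.16 (R 4.3.3) with TMM scaling, filterByExpr with a minimum count of 10 and a robust quasi-likelihood fit. Genes with a Benjamini-Hochberg adjusted p under 0.05 were called. The code was tested on simulated data. Alternatives included DESeq2 1.42.0, limma-voom (limma 3.58.1), other scaling and filters, covariates and leaving out each library. For named genes the rule took the 4 members, the 5 genes most correlated with each among those of at least 5 CPM with a shared symbol, and, of each list, called genes or, with none called, the 2 with the smallest p. Arntl, Arntl2, Npas2, Per1 and Nr1d1 were added after their values were seen. The members and lists were chosen with earlier results of these data known. The 4 promoter windows were matched by symbol to the RefSeq table. Depths of 12957838 to 32571175 counts per library limit the precision of genes with low counts.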

Additional observations from a re-analysis of the deposited data

Results flagged for a closer look

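Tef in Mut replicate 2 stood apart from the rest of its group, at 85.5 CPM against 111.1, 115.6 and 113.8 CPM in the other Mut libraries. The gap to the nearest of them is 0.851 of the group's whole range, above the 95% critical value of 0.829 for 4 libraries. Chance flags about 1 in 20 groups, and 12 groups of 4 libraries were examined. Without that library the log2 fold change of Tef in Mut over Ctrl was -0.23 (edgeR adjusted p = 0.520).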

How the results depend on the processing

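Of 152 alternative values for the 4 genes, 143 kept their direction and their side of the threshold, 4 lost a call, 5 gained one and 0 reversed. Dbp in PTU+TH over PTU was the only called result, and it kept its call in 14 of 18 alternatives. For the other results, a kept value means only the same sign without a call. Hlf in Mut over Ctrl counts as kept at -0.20 in libraries with Y-linked counts (Ctrl n = 1), against -0.65 in the main fit. In PTU+TH over PTU the log2 fold change of Dbp was 1.17 in the fit over all 15 libraries (edgeR adjusted p = 0.0764) and 1.08 to 1.32 leaving out each library, with the call kept in 4 of 7 such fits. Hlf passed with DESeq2 (0.62), limma-voom (0.70), the Y-linked split as a term (0.58) and the long-gene share as a covariate (0.59), and gave 0.55 to 0.70 leaving out each library. In Mut over Ctrl Hlf passed with limma-voom (-0.75) and gave -0.76 to -0.53 leaving out each library.

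Genes called in PTU+TH against PTU numbered 43 and moved to 203 with DESeq2, 162 with limma-voom, 335 with the Y-linked split as a term, 1011 with the long-gene share, 105 in libraries with Y-linked counts, 87 in those without, and 5 to 29 leaving out each library. Genes called in Mut against Ctrl numbered 59 and moved to 403, 331, 31 and 210 under the first 4 of these, 0 and 1 in the libraries with and without Y-linked counts, 90 with a filter of at least 1 CPM, 196 in the fit over all 15 libraries, and 11 to 103 leaving out each library. The within-split fits were chosen after seeing the data. Clock list calls, 0 in both comparisons, became 1, 1, 1 and 2 under the first 4 in PTU+TH against PTU, and 2 with DESeq2, 1 with limma-voom and 1 over all 15 libraries in Mut against Ctrl. Target list calls became 1, 1, 2 and 2 in PTU+TH against PTU, and 1 with DESeq2 and 1 over all 15 libraries in Mut against Ctrl. The cause of these shifts was not tested.

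PTU+TH and PTU share no replicate numbers. In Mut against Ctrl the replicate block gave log2 fold changes of -0.77 for Dbp, -0.32 for Tef, -0.67 for Hlf and 0.72 for Nfil3, with edgeR adjusted p of 0.295, 0.231, 0.191 and 0.325. Same-numbered libraries correlated at -0.0365 to 0.291, and 2 of 4 Mut libraries correlated best with their own number, so the numbers were not read as pairs. Nfil3 had the fewest counts of the 4 genes in every PTU+TH, PTU and Ctrl library, and in 3 of 4 Mut libraries Dbp had fewer.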
